A study of Mus musculus with 6 samples.

Results

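Whether crystals of calcium phosphate form in a matrix depends on genes that supply phosphate and genes that hold crystal growth back, and 8 such genes were followed in the tail tendons of WT and *Mkx-/-* mice. The 8 are 5 inhibitors (*Ucma*, *Mgp*, *Spp1*, *Ank* and *Enpp1*) and 3 promoters (*Alpl*, *Phospho1* and *Slc20a1*) of mineralization, taken by gene symbol from the 44788 symbols of the count table, and each was present once. Bulk RNA-seq, which reads the RNA of all cells of a tissue together, was done on 3 WT and 3 *Mkx-/-* libraries. The mice were C57BL/6, and the labels give an age of 3 weeks, while the study's text gives an older age. The labels name no treatment, and the targeted allele is not described in the sources used here. The genes were chosen by their WT and *Mkx-/-* levels in these same libraries, so their differences between the genotypes are given as a description with no test. The class names inhibitor and promoter are textbook roles and were not measured.

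Mineral grows from inorganic phosphate and calcium, and inorganic pyrophosphate blocks that growth. *Enpp1* cuts ATP outside the cell into AMP and pyrophosphate, and *Ank* brings pyrophosphate or its ATP precursor out of the cell. *Alpl*, the tissue-nonspecific alkaline phosphatase, breaks pyrophosphate down to phosphate, *Phospho1* frees phosphate inside matrix vesicles, and *Slc20a1* (PiT-1) carries phosphate into cells. *Mgp* and *Ucma* are secreted proteins whose glutamates are gamma-carboxylated with vitamin K, and *Spp1* (osteopontin) is an acidic phosphoprotein that binds mineral and cell surface receptors. Loss of *Enpp1*, *Ank* or *Mgp* is known to cause ectopic mineral in mice, and *Mkx* is a homeobox transcription factor of tendon.

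The libraries held between 10835070 and 14160301 counts, and *Col1a1*, *Col1a2* and *Sparc* took 42.0% to 48.5% of them in WT and 28.4% to 34.8% in *Mkx-/-* tendons. Counts were therefore scaled with TMM and are given as normalized CPM, that is, counts relative to the scaled size of each library. *Mkx* had 1825, 1381 and 1685 counts in WT and 620, 589 and 491 counts in *Mkx-/-* libraries, so reads on the gene remained in the mutants (log2 fold change -1.60). *Ddx3y*, a Y-linked gene, had 301 counts in WT replicate 3 and was at 0 elsewhere, while *Xist* had 1 count there and 1289 to 1866 elsewhere, so sex was not the same in all libraries. WT replicate 1 stood further from the other WT libraries (chi-square per degree of freedom of 37.6 and 39.9) than these did from each other (8.02). Pairs of *Mkx-/-* libraries lay between these values, at 22.9 to 26.8. The labels do not say that the libraries came from separate animals, so the spread between them may be technical in part.

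Of 14550 genes with enough counts to test, edgeR's quasi-likelihood test with Benjamini-Hochberg adjustment put 3.18% past an adjusted p of 0.05 with a higher level in *Mkx-/-* tendons and 2.26% with a lower level. With a log2 fold change beyond 1 as well, 1.89% were called higher and 1.33% lower. At an unadjusted p under 0.05, 12.5% were higher and 10.1% lower, and by DESeq2's adjusted p 5.41% and 4.04%. In 14.6% of tested genes all 3 *Mkx-/-* libraries lay above all 3 WT libraries, and in 13.6% they lay below. All 8 mineralization genes passed the filter on low counts. Their fitted log2 fold changes were all positive, with a median of 0.70 against -0.004 over all tested genes. The 3 *Mkx-/-* libraries lay above the 3 WT libraries in 6 of the 8, all but *Enpp1* and *Phospho1*. *Ucma*, *Spp1* and *Ank* were past the adjusted p in the fit across all genes, and *Ucma* and *Spp1* were also beyond a log2 fold change of 1. *Spp1* lay just inside the adjusted threshold and *Mgp* just outside it, and 1 to 5 of the 8 were past it over 14 alternative fits. Since the genes were picked with these values known, nothing is read from these counts against the background. In bulk tissue, a change in the number of cells of a type and a change in RNA per cell cannot be told apart.

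**Figure D1:**
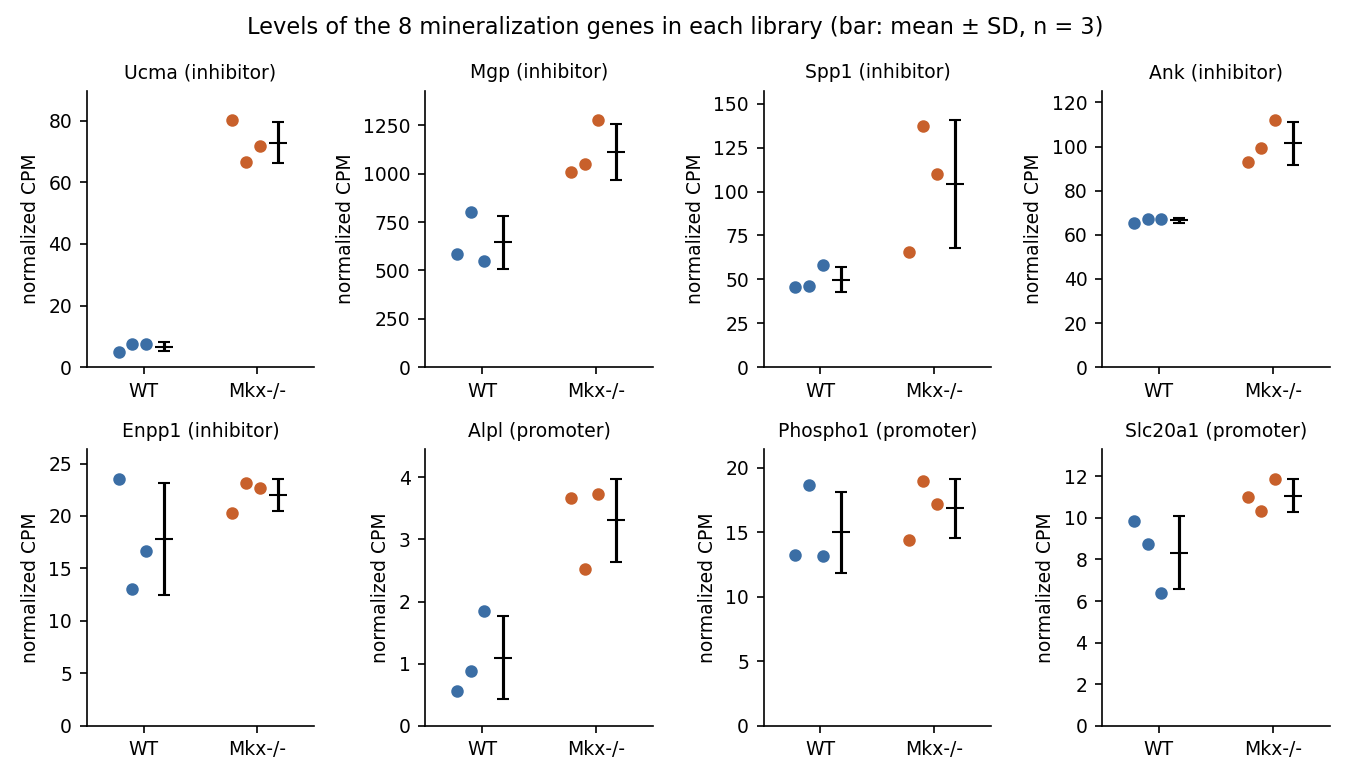
Normalized CPM (vertical axes, starting at 0) of the 5 inhibitors and 3 promoters in each of the 3 WT (blue) and 3 Mkx-/- (orange) libraries, with the mean ± SD of each group (n = 3) in black. Ucma has the widest gap between the groups, from 7.46 CPM in the highest WT library to 66.7 CPM in the lowest Mkx-/- library, and the groups overlap in Enpp1 and Phospho1.

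Stretches upstream of the members past the adjusted p are shown so that the start regions of these genes can be compared. The sequences are from RefSeq windows listed for GRCm38.p6, cut to the 250 bases before the start, and each of them has 1 exact match in the mm9 genome, whose coordinates are given. *Ucma* lies at chr2:4896918-4897167, *Spp1* at chr5:104863880-104864129 and *Ank* at chr15:27396182-27396431, all on the plus strand and directly before, or within 7 bases of, the gene start of the GENCODE annotation of mm9. Capitals mark TGTGGT (the core bound by Runx factors, which drive bone and cartilage genes), CCAAT and TATAAA, on either strand. AACAAT, a Sox core, was also searched.
Ucma promoter: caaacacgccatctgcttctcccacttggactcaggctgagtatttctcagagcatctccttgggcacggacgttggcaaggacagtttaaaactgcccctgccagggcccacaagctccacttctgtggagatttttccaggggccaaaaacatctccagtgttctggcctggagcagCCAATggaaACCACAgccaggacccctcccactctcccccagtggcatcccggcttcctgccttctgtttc
Spp1 promoter: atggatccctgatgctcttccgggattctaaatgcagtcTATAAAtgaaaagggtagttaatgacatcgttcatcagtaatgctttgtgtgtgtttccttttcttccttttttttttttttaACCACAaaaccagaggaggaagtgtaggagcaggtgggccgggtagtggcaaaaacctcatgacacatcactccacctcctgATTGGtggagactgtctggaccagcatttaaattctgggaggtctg
Ank promoter: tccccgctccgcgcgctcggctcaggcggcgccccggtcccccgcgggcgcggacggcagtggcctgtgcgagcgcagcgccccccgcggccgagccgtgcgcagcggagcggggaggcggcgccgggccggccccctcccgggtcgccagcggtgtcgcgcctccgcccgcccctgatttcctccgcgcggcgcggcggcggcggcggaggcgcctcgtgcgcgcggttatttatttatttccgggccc

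The *Ucma* window holds CCAAT at 71 bases and ACCACA, the reverse of TGTGGT, at 62 bases before the start. The *Spp1* window holds TATAAA at 211, ACCACA at 128 and ATTGG, the reverse of CCAAT, at 46 bases before the end of the window. The *Ank* window holds none of the 4 motifs and is 81.2% G and C, against 56.4% in *Ucma* and 43.6% in *Spp1*. Of the 7 members with a window (all but *Mgp*), 4 hold TGTGGT in the window nearest the gene start: *Ucma*, *Spp1*, *Enpp1* and *Slc20a1*. CCAAT is likewise held by 4 (*Ucma*, *Spp1*, *Slc20a1* and *Phospho1*), TATAAA by 1 (*Spp1*) and AACAAT by 0. Over 32851 windows of the same length, 14.0% hold TGTGGT, 9.42% AACAAT, 33.8% CCAAT and 12.4% TATAAA. A match of letters is a description of the sequence and not a measured binding site.

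*Ucma*, the *Gla*-rich protein of growth plate and other cartilage, was the member with the largest difference. It is on the plus strand of chromosome 2 from 4897168 to 4906794 in mm9, with 884 exon bases and no overlapping gene. It had 62, 76 and 92 counts in WT and 875, 949 and 906 counts in *Mkx-/-* libraries, or 4.88, 7.46 and 7.37 against 80.15, 66.7 and 71.8 CPM. The *Mkx-/-* libraries were close to each other, the WT libraries varied more (coefficients of variation of 9.33% and 22.2%), and the groups were far apart. Mean levels in CPM were 6.57 ± 1.46 for WT against 72.9 ± 6.80 for *Mkx-/-* (± SD, n = 3 each). This is 11.1-fold, or 3.47 on the log2 scale with a standard error of 0.19. The log2 fold change lay between 3.29 and 3.73 in 14 alternative fits.

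*Mgp*, the matrix *Gla* protein, was the most abundant member. It spans chromosome 6, minus strand, from 136820957 to 136824326, with 598 exon bases. Its level was 584, 803 and 549 CPM in WT and 1007, 1052 and 1277 CPM in *Mkx-/-* libraries. The groups did not overlap, although WT replicate 2 lay closer to the mutants than the other WT libraries did. The means of 645 ± 138 and 1112 ± 145 CPM (SD, n = 3 each) gave a log2 fold change of 0.78 (standard error 0.19). *Mgp* took 74.6% to 83.2% of the raw counts of the 8 genes in every library, so a summed level of the inhibitors is mostly the level of *Mgp*. That sum was 698 to 937 CPM in WT and 1266 to 1594 CPM in *Mkx-/-* libraries.

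*Spp1*, osteopontin, is on the plus strand of chromosome 5 from 104864137 to 104870069. Its level was 45.5, 46.0 and 58.0 CPM in WT and 65.5, 137 and 110 CPM in *Mkx-/-* libraries. WT libraries were close to each other, and *Mkx-/-* replicate 1 lay near the highest of them. The means were 49.8 ± 7.08 and 104 ± 36.3 CPM (SD, n = 3 each), and the fitted log2 fold change was 1.07, with a standard error of 0.25. *Spp1* was the most variable member among the *Mkx-/-* libraries, with a coefficient of variation of 34.8% against 7.03% to 20.4% in the other 7 genes. Its log2 fold change was lowest, at 0.82, and highest, at 1.29, among the 6 fits on 5 libraries, those lacking *Mkx-/-* replicate 2 and *Mkx-/-* replicate 1.

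*Ank* is on the plus strand of chromosome 15 from 27396432 to 27524664. Its level was 65.4, 67.2 and 67.05 CPM in WT and 93.0, 99.5 and 112 CPM in *Mkx-/-* libraries. The WT libraries were nearly equal, with a coefficient of variation of 1.53%, the smallest of the 8 genes, and the groups were clearly apart. The means were 66.6 ± 1.02 and 101.5 ± 9.68 CPM (SD, n = 3 each), and the fitted log2 fold change was 0.61, with a standard error of 0.12. It lay between 0.53 and 0.87 in 14 alternative fits.

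*Enpp1*, the enzyme that makes the pyrophosphate, spans chromosome 10, minus strand, from 24357720 to 24431965. Its level was 23.6, 13.05 and 16.7 CPM in WT and 20.2, 23.1 and 22.7 CPM in *Mkx-/-* libraries. WT replicate 1 had the highest level of all 6 libraries, and the groups overlapped. The means were 17.8 ± 5.34 and 22.0 ± 1.55 CPM (SD, n = 3 each), and the log2 fold change of 0.31 (standard error 0.21) lay between 0.12 and 0.56 when single libraries were left out, highest without WT replicate 1.

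*Alpl* was the scarcest member, on chromosome 4, minus strand, from 137297648 to 137352299. It had 7, 9 and 23 counts in WT and 40, 36 and 47 counts in *Mkx-/-* libraries, or 0.55, 0.88 and 1.84 against 3.66, 2.53 and 3.73 CPM. All *Mkx-/-* libraries lay above WT, but at this depth the exact Poisson 95% interval of the 23 counts in WT replicate 3, 14.6 to 34.5, reached into that of the 36 counts in *Mkx-/-* replicate 2, 25.2 to 49.8. These intervals cover counting error only. The means were 1.09 ± 0.67 and 3.31 ± 0.67 CPM (SD, n = 3 each), and the fitted log2 fold change was 1.58 with the largest standard error of the 8 genes, 0.43. It was 2.19 without WT replicate 3.

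*Phospho1* is annotated on the plus strand of chromosome 11 from 95685813 to 95693454. Its level was 13.2, 18.65 and 13.1 CPM in WT and 14.4, 19.0 and 17.2 CPM in *Mkx-/-* libraries. The groups overlapped, and WT replicate 2 was higher than 2 of the 3 *Mkx-/-* libraries. The log2 fold change was 0.17 (standard error 0.18), between means of 15.0 ± 3.15 and 16.85 ± 2.32 CPM (SD, n = 3 each). Of its exon bases, 84.5% are also exons of other genes, *Zfp652* on the same strand and *Abi3* on the opposite strand, and how reads in shared exons were counted is not given in the sources used here. *Zfp652* had 7.26 to 11.2 CPM in WT and 5.06 to 8.88 CPM in *Mkx-/-* libraries, and *Abi3* stayed between 0.63 and 1.86 CPM in all 6. The part of these genes in the *Phospho1* counts was not tested.

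*Slc20a1* is on the plus strand of chromosome 2 from 129024500 to 129037352. Its level was 9.85, 8.73 and 6.41 CPM in WT and 10.99, 10.3 and 11.9 CPM in *Mkx-/-* libraries. The lowest *Mkx-/-* library lay just above the highest WT library. The means were 8.33 ± 1.75 and 11.1 ± 0.78 CPM (SD, n = 3 each), and the log2 fold change was 0.41 (standard error 0.19), between 0.23 and 0.55 when single libraries were left out. A gene on the opposite strand, *9830144P21Rik*, shares 8.1% of its exon bases.

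**Figure D2:**
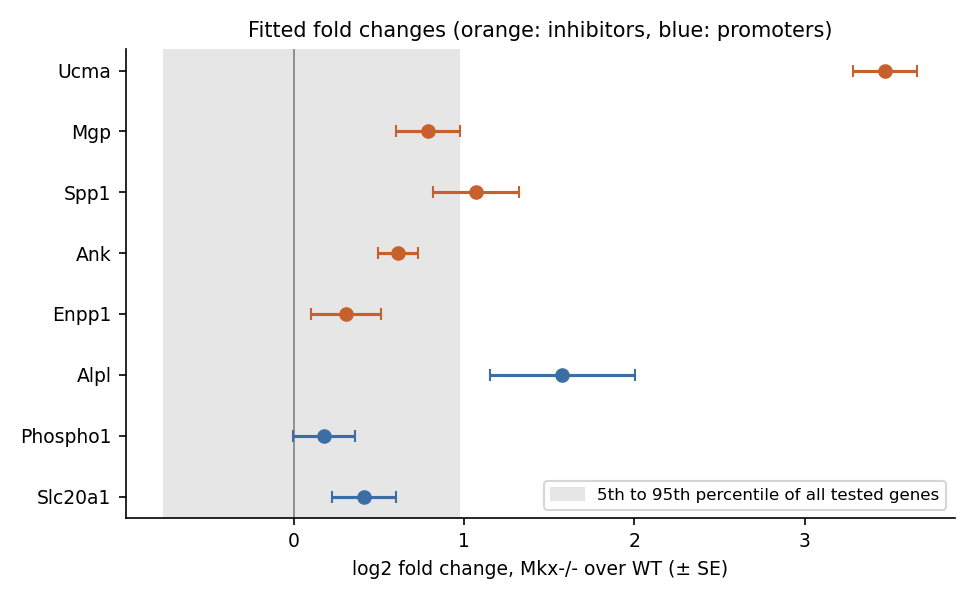
Fitted log2 fold change of Mkx-/- over WT (horizontal axis) with its standard error for the 5 inhibitors (orange) and 3 promoters (blue); the grey band spans the 5th to the 95th percentile of all tested genes, from -0.77 to 0.97. Ucma, Spp1 and Alpl lie to the right of the band, and the other 5 lie inside it.

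Per kilobase of exon, the scale on which genes can be set against each other, the order of levels in WT tendons was *Mgp* at 1079 ± 230, *Spp1* at 30.2 ± 4.30, *Ank* at 18.45 ± 0.28, *Ucma* at 7.43 ± 1.65, *Phospho1* at 6.98 ± 1.47, *Enpp1* at 1.73 ± 0.52, *Slc20a1* at 1.49 ± 0.31 and *Alpl* at 0.27 ± 0.17 CPM per kilobase (SD, n = 3 each). *Ucma* and *Phospho1* overlapped in WT, as did *Enpp1* and *Slc20a1*. In *Mkx-/-* tendons *Mgp* was at 1860 ± 242, *Ucma* at 82.4 ± 7.69, *Spp1* at 63.35 ± 22.0, *Ank* at 28.1 ± 2.68, *Phospho1* at 7.83 ± 1.08, *Enpp1* at 2.15 ± 0.15, *Slc20a1* at 1.98 ± 0.14 and *Alpl* at 0.82 ± 0.17 CPM per kilobase (SD, n = 3 each). *Ucma* thus moved from the fourth to the second place in the order of means, where its libraries overlapped with those of *Spp1*, and *Enpp1* and *Slc20a1* again overlapped. *Alpl* remained the lowest of the 8. The places of *Ucma* in this order come from the same values that chose it, and the exon lengths are those of the annotation rather than of the transcripts in these cells. The place of *Phospho1* also depends on how reads in the exons it shares with other genes were counted.

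**Figure D3:**
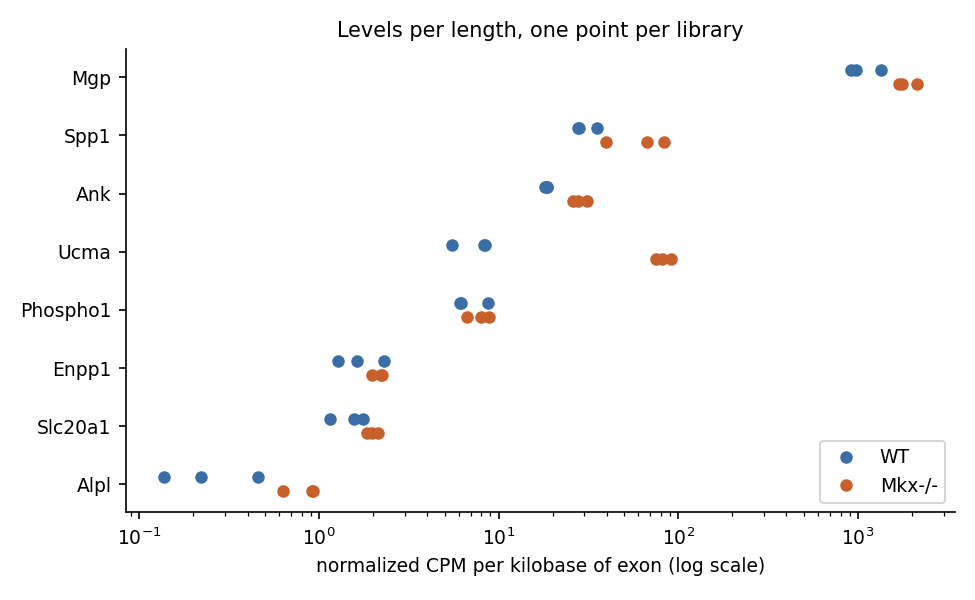
Normalized CPM per kilobase of annotated exon (horizontal axis, log scale) of each gene in the 3 WT (blue) and 3 Mkx-/- (orange) libraries, ordered by the WT mean. Mgp is highest and Alpl lowest in both genotypes, and Ucma is the gene whose points are furthest apart.

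Inhibitors were then set against promoters. The median log2 fold change was 0.78 over the 5 inhibitors and 0.41 over the 3 promoters, so both classes were higher in *Mkx-/-* tendons, by medians that differed by 0.38. This difference was 0.17 without WT replicate 1, where the median was 0.72 for the inhibitors (*Mgp*) and 0.55 for the promoters (*Slc20a1*). Within each library, the mean log2 CPM of the inhibitors exceeded that of the promoters by 3.46, 3.18 and 3.17 in WT and by 3.58, 3.89 and 3.73 in *Mkx-/-* tendons. The groups did not overlap, with a mean difference of 0.46. This rested on *Ucma*: without it the excess was 4.26, 3.85 and 3.85 in WT and 3.66, 4.09 and 3.91 in *Mkx-/-* libraries, the groups overlapped, and the mean difference was -0.10. The mean of the 3 promoters in turn carries the scarce *Alpl*, with a log2 fold change of 1.58 against 0.17 in *Phospho1* and 0.41 in *Slc20a1*. The medians of the classes still differed by 0.287 without *Ucma*.

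Ratios of counts within a library do not depend on how libraries are scaled. The log2 ratio of *Enpp1* to *Alpl*, the enzymes that make and break pyrophosphate, was 5.42, 3.88 and 3.18 in WT and 2.47, 3.19 and 2.60 in *Mkx-/-* libraries. It was lower on average in *Mkx-/-* tendons by 1.41, but WT replicate 3 lay just below *Mkx-/-* replicate 2, so the groups overlapped. *Ank*, *Mgp* and *Spp1* relative to *Alpl* overlapped as well, with mean differences of -1.15, -0.96 and -0.75. *Ucma* relative to *Alpl* was apart, at 3.15, 3.08 and 2.0 in WT and 4.45, 4.72 and 4.27 in *Mkx-/-* libraries. The ratio to *Alpl* carries its small counts. Relative to *Phospho1*, whose counts were larger, *Ank*, *Mgp*, *Spp1* and *Ucma* were each higher in all 3 *Mkx-/-* libraries, with mean differences of 0.43, 0.62, 0.83 and 3.32 on the log2 scale, and *Enpp1* overlapped with 0.17. The ratio to *Phospho1* has its own limit, since 84.5% of its exon bases are also exons of other genes. What those genes add to its counts was not tested. The ratio of *Ank* to *Enpp1* overlapped too, at 1.95 ± 0.45 in WT and 2.20 ± 0.10 in *Mkx-/-* libraries (log2 scale, SD, n = 3 each).

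**Figure D4:**
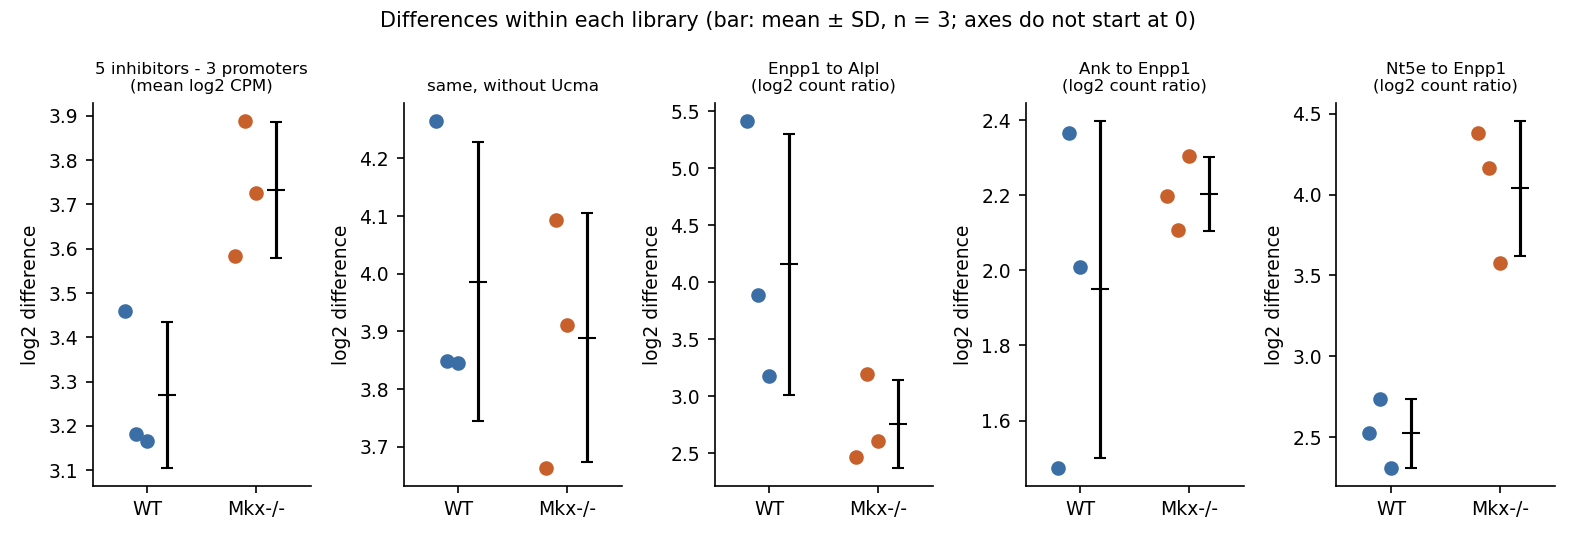
Log2 differences within each library for 3 WT (blue) and 3 Mkx-/- (orange) libraries, with the mean ± SD in black (n = 3 each); axes do not start at 0. The inhibitors' mean excess over the promoters is apart between the groups with Ucma and overlaps without it, Enpp1 to Alpl and Ank to Enpp1 overlap, and Nt5e to Enpp1 is apart.

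The other genes of the pathway were taken from 5 lists of 62 genes, of which 47 had enough counts to test. In the edgeR fit 5 of these, 10.6%, rose in *Mkx-/-* tendons at an adjusted p under 0.05 (3.18% of all genes did), and 0 fell, with 5 lower at an unadjusted p under 0.05. DESeq2 put 9 past the threshold upward and 2 downward. The median log2 fold change of the 47 was 0.06. Without WT replicate 2, WT replicate 3 or *Mkx-/-* replicate 2, 3 of them rose.
Among 10 tested genes of phosphate and pyrophosphate handling, *Nt5e* and *Enpp2* rose by edgeR. At an unadjusted p under 0.05, 4 of the list were higher and 2 lower. *Nt5e* (CD73) turns the AMP left by *Enpp1* into adenosine and phosphate. Its level was 136, 87.0 and 82.5 CPM in WT and 422, 414 and 270 CPM in *Mkx-/-* libraries, apart in all. The fitted log2 difference was 1.86 with a standard error of 0.25 (adjusted p = 0.00576 by edgeR, and at most 0.0449 over the alternatives). Relative to *Enpp1* within a library, *Nt5e* was higher in every *Mkx-/-* library, with a mean difference of 1.52 on the log2 scale. *Enpp2* (autotaxin), a relative of *Enpp1* that makes lysophosphatidic acid rather than pyrophosphate, rose from 42.0 ± 7.98 to 112 ± 8.49 CPM (SD, n = 3 each), or by 1.41 on the log2 scale (adjusted p = 0.00282 by edgeR, and at most 0.0226 over the alternatives). *Slc20a2*, the partner transporter of *Slc20a1*, was at 32.7 ± 3.00 and 46.1 ± 5.96 CPM (SD, n = 3 each; edgeR adjusted p = 0.0794). *Xpr1*, a phosphate exporter, was at 24.5 ± 4.11 and 16.3 ± 1.79 CPM (SD, n = 3 each; edgeR adjusted p = 0.0717), and was past the threshold in DESeq2. *Abcc6* was at 9.84 ± 4.755 and 4.65 ± 2.24 CPM (SD, n = 3 each; edgeR log2 fold change -1.07, adjusted p = 0.169), with overlapping groups.
Among 6 tested bone matrix genes, *Aspn* and *Ecm1* rose by edgeR, and 2 others were lower at an unadjusted p under 0.05, 1 of them past DESeq2's threshold. *Aspn* (asporin), a small leucine-rich proteoglycan that binds collagen and calcium, went from 109 ± 18.1 to 213 ± 20.6 CPM (SD, n = 3 each; edgeR adjusted p = 0.0140), and *Ecm1*, a secreted glycoprotein, from 313 ± 47.1 to 605 ± 61.2 CPM (SD, n = 3 each; edgeR adjusted p = 0.0153). *Aspn* had an adjusted p of 0.0663, 0.0592 and 0.0531 without WT replicate 2, WT replicate 3 and *Mkx-/-* replicate 2, and *Ecm1* of 0.0718 and 0.0556 without the last 2 of these. The 2 lower ones were *Sparc*, a collagen-binding matrix protein, at 66480 ± 4661 in WT and 39210 ± 3837 CPM in *Mkx-/-* (edgeR adjusted p = 0.0994, DESeq2 adjusted p = 4.71e-06), and *Omd*, a small proteoglycan, at 7.05 ± 1.22 and 3.90 ± 1.08 CPM (SD, n = 3 each). Both were lower in all 3 *Mkx-/-* libraries, and the list's summed level, mostly *Sparc*, was 64250 to 72250 CPM in WT and 37490 to 44450 CPM in *Mkx-/-* libraries. The other 8 genes of the list, *Ibsp*, *Dmp1*, *Mepe*, *Dspp*, *Phex*, *Ahsg*, *Fetub* and *Sost*, had at most 23 counts in any library.
Among 13 tested receptors and proteases of *Spp1*, *Cd44* rose from 21.1 ± 2.97 to 58.7 ± 19.1 CPM (SD, n = 3 each; log2 fold change 1.47, edgeR adjusted p = 0.0122, and 0.0624 without WT replicate 2). Of 8 tested genes of gamma-carboxylation and *Gla* proteins, the enzymes and relatives of *Mgp* and *Ucma*, 0 passed in either edgeR or DESeq2 (at an unadjusted p under 0.05, 1 was higher), and the most abundant, *Gas6* and *Vkorc1*, had these mean levels: *Gas6* at 662 ± 81.5 in WT and 592 ± 81.2 in *Mkx-/-*, and *Vkorc1* at 188 ± 41.6 and 195 ± 46.8 CPM (SD, n = 3 each). Of 10 matrix vesicle genes, which belong to the membrane particles in which *Phospho1* acts, 0 passed in edgeR and 2 higher in DESeq2 (2 higher at an unadjusted p under 0.05), with *Anxa2* at 498 ± 44.2 and 695 ± 89.2 CPM (SD, n = 3 each).

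**Figure D5:**
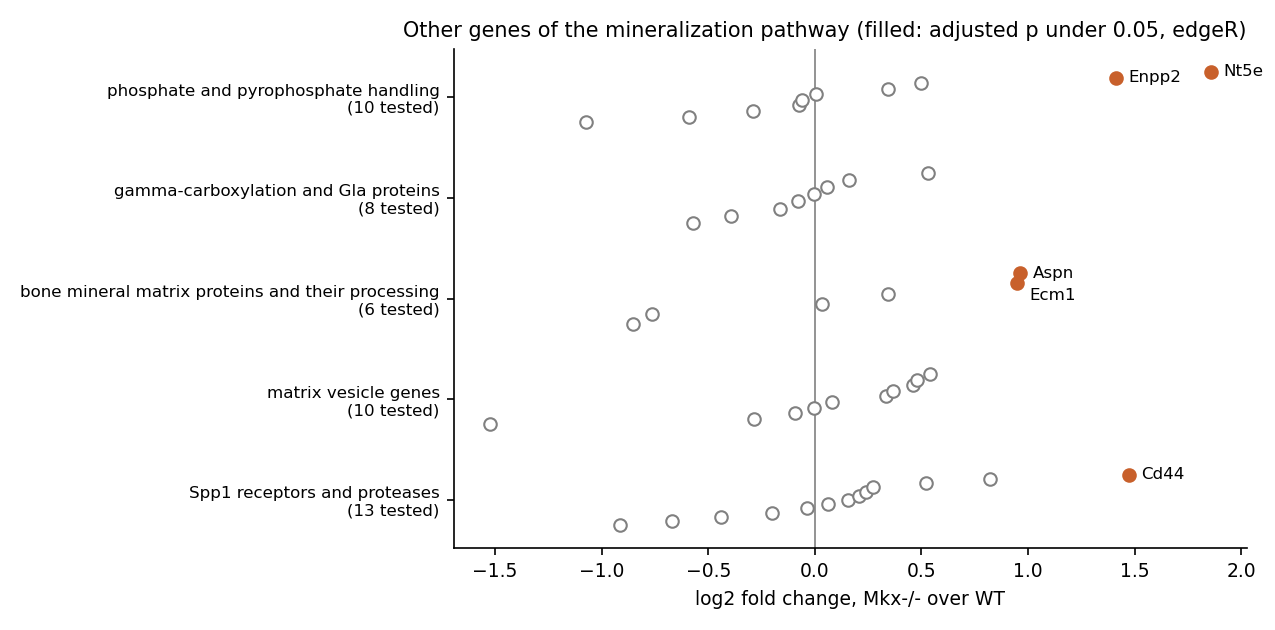
Log2 fold change of Mkx-/- over WT (horizontal axis) of the 47 tested genes of the 5 pathway lists, one row per list; filled orange points are past an adjusted p of 0.05 in edgeR and open points are not. Nt5e, Enpp2, Aspn, Ecm1 and Cd44 are filled, all to the right of 0.

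Of 124 genes in the bone mineralization term that the study used for its single cells, all were found in the table and 4 are among the 8 described here. Of the other 120, 94 were tested, 5 (5.32%) rose and 4 (4.26%) fell by edgeR's adjusted p, beside 3.18% and 2.26% of all genes, with a median log2 fold change of 0.035. Beside *Aspn* and *Ecm1*, those that rose were *Pthlh*, the parathyroid hormone-related protein of the growth plate, *Gpc3* and *Fam101b* (1.63, 0.78 and 1.23 on the log2 scale, with edgeR adjusted p = 0.0122, 0.0164 and 0.0177). Those that fell were *Lox*, which crosslinks collagen, the BMP receptor *Bmpr1b*, *Wnt4* and *Fzd9* (-1.41, -0.84, -2.18 and -0.78 on the log2 scale, with edgeR adjusted p = 0.0122, 0.0252, 0.0350 and 0.0388). *Wnt4* had only 10 to 17 counts in WT and 2 to 4 in *Mkx-/-* libraries. Without WT replicate 3, 0 were past the threshold in either direction by edgeR. Of the genes named here, *Lox* and *Fam101b* were nearest in that fit, at edgeR adjusted p = 0.0556 and 0.057. Without WT replicate 2 or *Mkx-/-* replicate 2, 3 rose and 1 fell, and without WT replicate 1, 9 rose. DESeq2 on all libraries gave 10 upward and 9 downward.

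Markers of cells that could supply these transcripts were read beside them. Of 10 osteoblast and osteocyte markers, 7 had too few counts to test, *Bglap* had 3 to 8 counts and *Sost* 0 or 1, and the summed level of the 3 tested was 4.41 to 8.49 CPM in WT and 4.43 to 6.66 CPM in *Mkx-/-* libraries. None of the 3 passed in edgeR or DESeq2. *Runx2*, the osteoblast transcription factor, was higher at an unadjusted p under 0.05, at 0.65 ± 0.16 in WT and 1.82 ± 0.67 CPM in *Mkx-/-* (edgeR adjusted p = 0.0734), with all 3 *Mkx-/-* libraries above WT at 6 to 10 and 13 to 36 counts. *Col13a1*, at 5.09 ± 2.17 and 2.16 ± 1.58 CPM (SD, n = 3 each), made up much of the sum and overlapped. Of 10 tested cartilage markers 8 had a higher fitted level, 5 of these at an unadjusted p under 0.05 and with the groups apart, and 4 passed in DESeq2, *Epyc* and *Sox9* among them. By edgeR 2 rose, beside 3.18% of all genes: *Acan* (log2 fold change 2.20, edgeR adjusted p = 0.00380) and *Matn3* (1.45, edgeR adjusted p = 0.00181), while *Col2a1* was at 748 ± 261 and 706 ± 220 CPM (SD, n = 3 each). *Matn1* was at 0 in every library, and the summed level of the list overlapped between WT (556 to 1096 CPM) and *Mkx-/-* libraries (786 to 1296 CPM). The log2 ratio of *Ucma* to *Acan* was -2.26 ± 0.17 in WT and -0.99 ± 0.24 in *Mkx-/-* libraries (SD, n = 3 each), so *Ucma* was higher in the mutants also relative to *Acan*. The part of cartilage cells in the *Ucma* level was not tested.
Of 7 osteoclast markers 2 were tested, and *Acp5*, the acid phosphatase that can remove phosphate from *Spp1*, rose from 4.74 ± 0.26 to 22.3 ± 2.78 CPM (SD, n = 3 each; edgeR adjusted p = 0.000463, and at most 0.0103 over the alternatives). *Calcr* was at 0 in every library, and the 5 untested markers had at most 9 counts. Of 10 macrophage and leukocyte markers, cells that also make *Spp1*, all 10 had a lower fitted level, 9 of them at an unadjusted p under 0.05 and with the groups apart. *Csf1r* and *Emr1* fell by edgeR, and 4 were past the threshold in DESeq2. Their summed level was 627 to 660 CPM in WT and 402 to 447 CPM in *Mkx-/-* libraries. Of 15 skeletal muscle markers 3 rose by edgeR (*Tnnt3*, *Tnni2* and *Tnnc2*), 8 were higher past DESeq2's threshold, an unadjusted p under 0.05 was reached upward by 14, and 12 had groups apart. The list's median log2 fold change was 2.93, with summed levels of 104 to 451 CPM in WT and 612 to 3202 CPM in *Mkx-/-* libraries. Within *Mkx-/-*, the muscle sum was 3202, 1531 and 612 CPM in replicates 1, 2 and 3, while *Ucma* was at 80.15, 66.7 and 71.8 CPM. *Mgp*, *Spp1*, *Ank*, *Enpp1* and *Phospho1* were each lowest in replicate 1 among the mutants. *Alpl* and *Slc20a1* in replicate 1 lay between replicates 2 and 3. Of 10 endothelial markers 0 passed in edgeR and 3 higher in DESeq2 (5 higher at an unadjusted p under 0.05), with sums of 60.2 to 77.4 and 73.1 to 137 CPM. Of 9 tendon markers 6 had a lower fitted level, and the list's median log2 fold change was -0.42. By edgeR 2 rose, *Thbs4* and *Tppp3*, and 0 fell, with 3 lower at an unadjusted p under 0.05. In DESeq2 4 fell: *Scx*, *Egr1*, *Col1a2* and *Col1a1* (edgeR log2 fold changes of -1.14, -1.13, -1.02 and -0.68). Summed levels of the list were 377300 to 520800 CPM in WT and 240800 to 335400 CPM in *Mkx-/-* libraries. What these cell types add to the 8 genes was not tested.

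The genes most like each member over the 6 libraries were found by the root mean square difference of centred log2 CPM among 10294 genes (10295 for *Alpl*) whose mean reached 5 CPM. These values include the difference between the genotypes and are a description. *Ucma* was nearest to *Net1*, *Plod2* and *Shisa2*, at 0.28, 0.33 and 0.33, where the median over all genes was 1.72. *Mgp* was nearest to *Ppp1r14b*, *Mfap5* and *Tubb6*, at 0.09 to 0.10 against a median of 0.48. *Spp1* was near to *Fa2h* and *Ncmap*, both at 0.13 against 0.64, and in both, as in *Spp1*, *Mkx-/-* replicate 1 was the lowest of the 3 mutants. *Ank* was nearest to *Fbln5*, *Glb1l* and *Chst3*, at 0.05 to 0.06 against 0.37. *Enpp1* was nearest to *Insig1*, *Spata6* and *Eif3s6-ps2*, *Alpl* to *Rgs3*, *Adamts17* and *B4galnt3*, *Phospho1* to *Zbtb21*, *LOC101056142* and *Elp5*, and *Slc20a1* to *Ddit3*, *Lxn* and *Irf2bpl*.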

How the data were processed

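Tail tendon RNA of 3 WT and 3 *Mkx-/-* libraries was extracted with Trizol and sequenced on the Ion Proton system after preparation with the Ion Total RNA-Seq kit. The authors removed adaptors and low-quality reads, aligned to mm9 with MapSplice and deposited the raw counts of reads for each gene symbol. The counting program, its annotation and its use of strand are not given in the sources used here. All 6 columns matched a sample label, and 0 were unused.

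From the deposited counts, edgeR 4.0.16 in R 4.3.3 was run with TMM scaling, filterByExpr, a quasi-likelihood fit on genotype and Benjamini-Hochberg adjustment over 14550 genes, and standard errors were taken from its F statistics. DESeq2 1.42.0, the study's tool, was an alternative. With 3 libraries a group, an exact permutation test of 1 gene cannot go below p = 0.1. The scripts were tested on simulated data. Alternatives were DESeq2, RLE, upper-quartile and library-size scaling, filters of 1 count in any and 10 counts in every library, a robust fit, a replicate block and each library left out. Leaving out *Ucma* was chosen after seeing the data. Positions and exon lengths come from the GENCODE annotation of mm9.

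The 8 members and the lists were chosen with earlier results of these data known. The lists were phosphate and pyrophosphate handling, gamma-carboxylation, bone matrix, matrix vesicles, *Spp1* receptors and proteases, the bone mineralization term, and markers of osteoblasts, cartilage, tendon, macrophages, osteoclasts, muscle and endothelium. Named were the members, *Mkx*, list genes past the adjusted p (or else the 2 most abundant), at most 5 of the term in each direction, markers past the adjusted p and 3 genes most like each member, while abundant markers are given through their sums. One gene that this rule names is not reported here. The ratios to *Phospho1*, *Acan* and *Enpp1*, the motifs, *Slc20a2*, *Xpr1*, *Abcc6*, *Sparc*, *Omd*, *Runx2*, *Col13a1*, *Epyc*, *Sox9* and the markers near 0 were chosen after their values were seen. So were *Ctsk* and, among the tendon markers, *Scx*, *Egr1*, *Col1a1* and *Col1a2*. No pair of replicates was a repeat of 1 library, with chi-square per degree of freedom of 8.02 to 39.9.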

Additional observations from a re-analysis of the deposited data

How the results depend on the processing

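With scaling by library size only, the median of all genes moved by 0.25, 711 genes were called higher and the share of higher among all calls was 82.2% instead of 58.8%. There 13 pathway and 17 mineralization-term genes rose and 1 pathway gene fell, and *Mgp*, *Ank*, *Phospho1* and *Slc20a1* had log2 fold changes of 1.05, 0.87, 0.44 and 0.66. With 1 count in any library as the filter, 541 genes were called higher and 322 lower, 11 term genes rose and 9 fell, and 2 pathway genes fell. DESeq2 gave 9 pathway genes higher and 2 lower, and 10 and 9 of the term. The robust fit gave 1 pathway and 7 term genes lower. Leaving out 1 library gave 103 to 321 genes called higher and 112 to 248 lower (lowest without WT replicate 3), 3 to 6 pathway genes higher, and 0 to 9 term genes higher and 0 to 5 lower. It moved the inhibitors' median minus that of the promoters from 0.375 to between 0.165 and 0.527. Without *Ucma*, the mean log2 difference between the classes was -0.097 instead of 0.463, and the difference of medians was 0.287.

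The replicate numbers did not pair the samples: deviations of same-numbered libraries correlated at -0.002, -0.305 and 0.377 over genes, and not every library correlated best with its own number. With the replicate block, 195 genes were called higher and 136 lower, and 1 term gene fell. The cause of these changes was not tested. Each of the 8 members was higher in *Mkx-/-* tendons in all 14 alternatives in which it was tested, and 1 to 5 of them were past the adjusted p. With 10 counts in every library *Alpl* was not tested, so the classes were not compared there. Counts of *Alpl*, 7 to 47, limit its precision.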

Other observations

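*Slc39a8*, a metal ion transporter in the matrix vesicle list, was at 24.7 CPM in WT replicate 1 and between 2.695 and 5.199 CPM in the other 5 libraries. WT replicate 1 was also the library with the highest *Enpp1* level, 23.6 CPM, and the lowest *Alpl* count, 7. *Slc39a8* was named after its values were seen.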
